A study of Danio rerio with 6 samples.

Results

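Hox genes, the family of homeobox transcription factors that gives the hindbrain and trunk their identity along the body, were examined in the telencephalon of male zebrafish exposed to fadrozole. The members were all probe sets outside the array maker's controls whose single gene symbol on the platform began with hox, a cluster letter from a to d and a digit. This gave 59 of 15502 probe sets and 42 of 8793 genes. Of these genes, 29 had 1 probe set, 9 had 2 and 4 had 3, and the probe sets of a gene were averaged. Members were chosen by name and not by their values.

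The control group held 3 arrays of unexposed, sexually mature males. The fadrozole group held 3 arrays of sexually mature males kept for 10 days in water with 200 µg/L fadrozole, a non-steroidal inhibitor of aromatase, the enzyme that makes estrogens from androgens. Each array carried RNA pooled from about 30 telencephalons, so differences between single fish are not seen, and the labels give neither strain nor genotype. They do not say whether the pools of a group came from separate tanks, so a p-value covers only how these arrays differ, and 3 arrays a group leave it imprecise. In pooled tissue, fewer cells of a type and less RNA per cell cannot be told apart.

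Hox genes lie in clusters, and the order of the genes in a cluster follows the order of their expression along the body axis. Genes of low paralogue number act in the hindbrain, those of middle number in the posterior hindbrain and anterior trunk, and those of high number in the posterior trunk, tail and fins. Hox proteins bind DNA together with cofactors of the TALE homeobox class. The forebrain lies in front of the Hox-expressing territory, and the telencephalon is a part of the brain in which Hox genes are not expected to be active. Fish carry more clusters than mammals because of an additional genome duplication, and the letters a and b at the end of a symbol name the duplicated copies.

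The 42 genes covered all 13 paralogue groups and all 7 clusters. The RefSeq table for the GRCz12tu assembly lists 49 protein-coding Hox genes on 7 chromosomes. The other 7 (hoxa13a, hoxb1b, hoxb13a, hoxc10a, hoxc12a, hoxc13b and hoxd12a) were not analysed here. Whether Hox transcripts were present could not be checked. The deposited values are ratios, with each probe set divided by its median over the 3 control arrays, so brightness is lost and signals near background cannot be recognised. By this construction at least 1 of the 3 control arrays has a ratio of exactly 1 for each probe set. For the same reason the tissue label could not be checked against levels of telencephalic markers. A level below is the log2 ratio to the control median after removal of each array's overall shift. A difference is the mean level on fadrozole arrays minus that on control arrays, with the standard error of the limma fit after ±, and n is 3 arrays per group unless stated.

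No Hox gene passed the limma test adjusted over all genes, and the smallest adjusted p among them was 0.471. Over all 8793 genes 0% passed. At an unadjusted p under 0.05, limma gave 5 Hox genes lower and 0 higher on fadrozole arrays. They were hoxb5a, hoxa11a, hoxa13b, hoxb8a and hoxc12b, with log2 differences from -2.65 to -1.26. These 5 are 11.9% of the Hox genes, beside 1.98% of all genes that were lower and 2.12% that were higher at the same p. With a variance trend in the fit the count was 2, or 4.76% of the Hox genes beside 2.96% of all genes in either direction. That trend follows the mean log2 ratio of a gene, which holds no brightness and depends in part on the difference itself. The count of 2 therefore does not show what a trend on brightness would give. Without the trend, limma draws the SD of every gene toward a common value. Widely spread genes thereby get smaller standard errors than their own SD gives, and the effect of this on the Hox count was not tested. In 3 of the 5 the fadrozole arrays all lay below the control arrays. This is 7.14% of the Hox genes, beside 3.89% of all genes without overlap in that direction and 3.93% in the other, where no Hox gene lay. Over both directions the Hox share of 7.14% lay near the 7.82% of all genes. This nearness depended on the scaling of the arrays. Without removal of array shifts, with plain median centring and with quantile normalisation the Hox share was 9.52%. Beside it stood 6.38%, 6.83% and 3.32% of all genes. Over all 42 genes 23 were lower and 19 higher, with a median difference of -0.22 beside a median of 0.00 over all genes. Single arrays turned the sign of this median: it was 0.07 without control replicate 1, 0.11 without control replicate 3 and 0.05 without fadrozole replicate 2, and -0.42 without control replicate 2. The direction of the genes at an unadjusted p under 0.05 also rested on single arrays, with 3 lower and 3 higher without control replicate 3 and 3 lower and 2 higher without fadrozole replicate 2. These are 14.3% and 11.9% of the Hox genes, beside 4.37% and 4.88% of all genes.

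**Figure D1:**
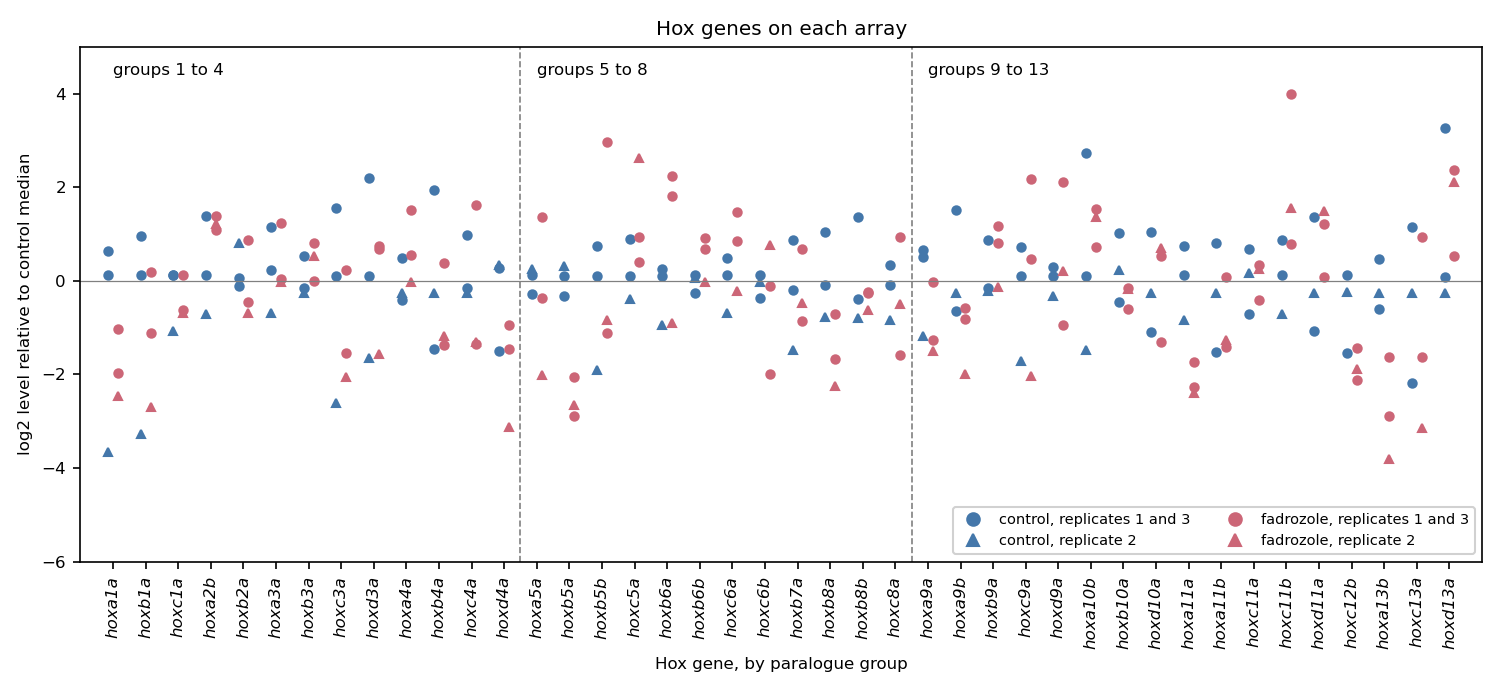
Level of each of the 42 Hox genes on each array, as log2 relative to the control median, with genes ordered by paralogue group along the horizontal axis. Blue points are control arrays and red points fadrozole arrays, triangles mark replicate 2 of each group, and the fadrozole points lie apart from the control points only for hoxb5a, hoxa11a and hoxa13b.

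The anterior trunk gene hoxb5a had deposited ratios of 1.00, 1.48 and 0.733 on control replicates 1, 2 and 3 and of 0.128, 0.176 and 0.225 on fadrozole replicates 1, 2 and 3. Every fadrozole array lay far below every control array. As log2 levels these were 0.11, 0.31 and -0.31 for control and -2.90, -2.66 and -2.06 for fadrozole. The means were 0.03 ± 0.32 (SD) and -2.54 ± 0.43 (SD). The difference of -2.57 ± 0.33 is 5.95-fold lower (limma, unadjusted p = 0.000234, adjusted p = 0.471). By unadjusted p it ranked 4 among all genes. An exact permutation test of this gene alone (two-sided) gave p = 0.1, and 3 against 3 arrays cannot give less.

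In mammals hoxa11 patterns the limb. Its zebrafish copy hoxa11a had deposited ratios of 1.56, 0.668 and 1.00 on the control arrays and of 0.199, 0.210 and 0.283 on the fadrozole arrays. The groups lay apart here too, although the control arrays were more spread than the fadrozole arrays. The levels averaged 0.02 ± 0.80 (SD) in control and -2.13 ± 0.36 (SD) in fadrozole. The difference was -2.15 ± 0.46, or 4.44-fold lower (limma, unadjusted p = 0.00363, adjusted p = 0.778).

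hoxa13b, which acts in the distal fin, had ratios of 1.28, 1.00 and 0.604 on control arrays and of 0.308, 0.0799 and 0.126 on fadrozole arrays. The fadrozole arrays lay below all control arrays but were widely spread among themselves. Levels were -0.13 ± 0.54 (SD) and -2.78 ± 1.09 (SD). The difference was -2.65 ± 0.61, or 6.27-fold lower (limma, unadjusted p = 0.00498, adjusted p = 0.874). For hoxa11a and hoxa13b the exact permutation p was 0.1.

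The other pair overlapped between the groups after removal of array shifts. hoxb8a, a gene of the posterior hindbrain and spinal cord, had mean levels over its 3 probe sets of -0.08, -0.77 and 1.05 on control arrays and of -0.72, -2.25 and -1.68 on fadrozole arrays. Fadrozole replicate 1 lay just above control replicate 2. Without removal of array shifts, with plain median centring or with quantile normalisation the groups of hoxb8a did not overlap. The difference was -1.61 ± 0.61 (limma, unadjusted p = 0.0377, adjusted p = 0.999). The posterior gene hoxc12b had ratios of 0.319, 1.00 and 1.00 on control arrays and of 0.354, 0.300 and 0.217 on fadrozole arrays. Control replicate 1 stood with the fadrozole arrays. The difference was -1.26 ± 0.49 (limma, unadjusted p = 0.0431, adjusted p = 0.999). For both the exact permutation p was 0.2. hoxb8a stayed at an unadjusted p under 0.05 in limma in 9 of 17 alternative settings and hoxc12b in 5 of 17, while hoxb5a and hoxa11a stayed in all 17 and hoxa13b in 16. The settings refit the arrays on which these genes were picked, so the counts describe the processing and are no separate support.

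The labels' slide numbers form 2 runs, a larger one with replicates 1 and 3 of both groups and a smaller one with replicate 2 of both. Within the larger and the smaller run the difference was -2.38 and -2.97 for hoxb5a, -2.44 and -1.57 for hoxa11a and -2.20 and -3.55 for hoxa13b. It was -1.68 and -1.47 for hoxb8a and -1.07 and -1.64 for hoxc12b. These 5 genes were picked for low values over the same arrays, and the smaller run sets 1 array against 1, so their sign in each run is a description only. Over all Hox genes 23 of 42 had the same sign in both runs (54.8%), beside 48.6% of all genes.

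For the other 37 genes the 95% interval of the difference included 0. Among the 13 anterior genes, of paralogue groups 1 to 4, 9 were lower and 4 higher, with a median difference of -0.35. The difference farthest from 0 was that of hoxd4a, a gene of the posterior hindbrain. Its levels were -1.49, 0.35 and 0.28 on control arrays and -1.46, -3.13 and -0.95 on fadrozole arrays. Control replicate 1 lay below fadrozole replicates 1 and 3, and the difference was -1.56 ± 0.76. The genes of paralogue group 1 were all lower by less than 1 standard error. In this group hoxb1a, which sets the identity of a hindbrain segment and its facial motor neurons, differed by -0.49 ± 1.28, hoxa1a by -0.86 ± 1.18 and hoxc1a by -0.12 ± 0.44. hoxa2b, which sets the identity of the second pharyngeal arch, was at 0.96 ± 0.54.

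Among the 12 genes of groups 5 to 8, 6 were higher and 6 lower, with a median of -0.07. Group 6 had 3 of 4 genes higher, with hoxb6a at 1.24 ± 0.89, hoxc6a at 0.73 ± 0.54, hoxb6b at 0.55 ± 0.33 and hoxc6b at -0.36 ± 0.71. All 3 genes of group 8 were lower, with hoxb8b at -0.43 ± 0.59 and hoxc8a at -0.19 ± 0.69 beside hoxb8a. Among the 17 posterior genes, of groups 9 to 13, 9 were higher and 8 lower, with a median of 0.02. The highest difference of any Hox gene was that of hoxc11b, at 2.01 ± 0.90. Its ratios were 1.69, 0.730 and 1.00 on control arrays and 15.18, 3.26 and 1.63 on fadrozole arrays. Fadrozole replicate 1 stood far above all other arrays, while fadrozole replicate 3 lay just below control replicate 1. Without fadrozole replicate 1 the difference of hoxc11b was 1.08, and without fadrozole replicate 3 it was 2.68.

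**Figure D2:**
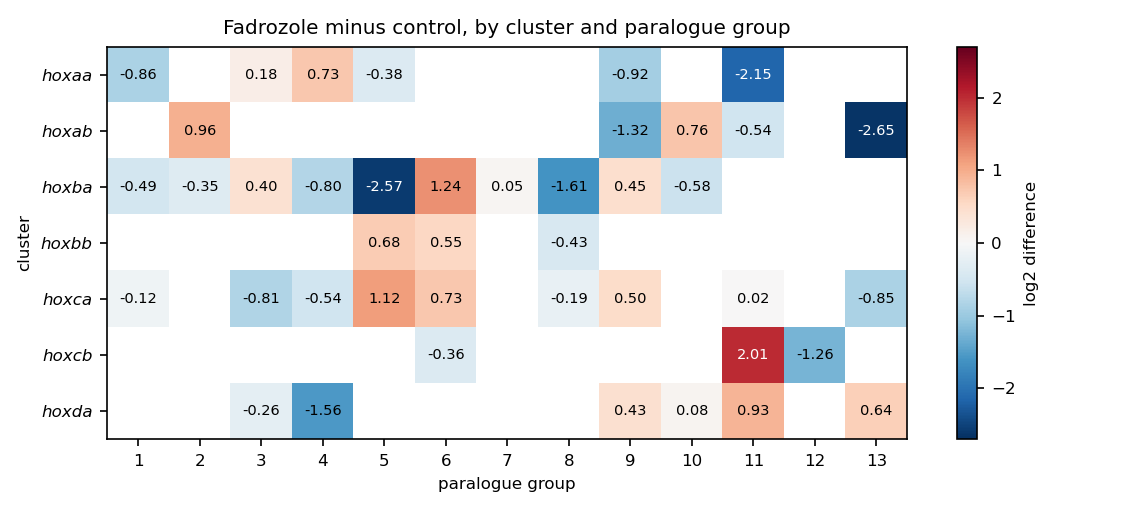
Log2 difference, fadrozole minus control, of each measured Hox gene, with the 7 clusters as rows and paralogue groups 1 to 13 as columns. Blue cells are lower and red cells higher on fadrozole arrays, blank cells have no measured gene, and values of both signs stand in every cluster, while groups 1, 8 and 12 hold only lower genes.

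Neighbours in a cluster had values of either sign. In the order of the RefSeq table, hoxb5a lies between hoxb6a, at 1.24 ± 0.89, and hoxb4a, at -0.80 ± 0.95. hoxa13b is followed by hoxa11b, at -0.54 ± 0.71, and by hoxa10b, at 0.76 ± 1.04. On the same cluster as hoxc12b, the next gene is hoxc11b, which had the highest difference. Of the 7 genes measured in both duplicated copies, 5 had copies of the same sign. hoxa9a and hoxa9b were at -0.92 ± 0.64 and -1.32 ± 0.68, and hoxa11a had hoxa11b beside it on the same side. For hoxc11 the a copy was at 0.02 ± 0.44 and hardly differed from 0. Copies of opposite sign were those of hoxc6 and of hoxb5, where hoxb5b was at 0.68 ± 1.28. The levels of hoxb5b were 0.11, -1.91 and 0.76 on control arrays and -1.12, -0.83 and 2.96 on fadrozole arrays. Its mean on fadrozole arrays rested on fadrozole replicate 3, and without that array the difference was -0.62.

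Hox genes varied more between replicate arrays than most genes. The SD of log2 levels within groups, pooled over both groups, had a median of 1.00 over the 42 Hox genes and of 0.53 over all genes. It lay above the all-gene median in 39 of the 42 (92.9%) and above the upper quartile of all genes in 21. No test was made of this, and it describes these 6 arrays. With slide run as a term in the fit the medians were 0.86 for Hox genes and 0.48 for all genes. With replicate number as a term they were 0.73 and 0.43. Averaging probe sets lowers the SD, and over genes with 1 probe set the median was 1.02 for 29 Hox genes and 0.56 for 7254 genes.

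The spread was widest for hoxb5b, hoxb1a and hoxc13a, with SDs of 1.89, 1.88 and 1.88. Levels of hoxb1a were 0.97, -3.26 and 0.14 on control arrays and 0.18, -2.69 and -1.12 on fadrozole arrays, with replicate 2 lowest in each group. hoxc13a, a gene of the posterior end of its cluster, was at -2.18, -0.25 and 1.15 on control arrays and at -1.63, -3.14 and 0.95 on fadrozole arrays. Both groups of hoxc13a thus spanned more than 3 units. The spread was narrowest for hoxb6b, hoxb5a and hoxb3a, with SDs of 0.38, 0.38 and 0.42, the only Hox genes below the all-gene median. For hoxb3a, a hindbrain gene, levels were 0.53, -0.25 and -0.15 on control arrays and 0.80, 0.54 and 0.00 on fadrozole arrays. For hoxb6b they were -0.26, 0.07 and 0.14, and 0.92, -0.01 and 0.69. Their differences were 0.40 ± 0.35 and 0.55 ± 0.33, and both overlapped between the groups.

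The spread of Hox genes was set beside that of lists with known places of expression. For 73 cytosolic ribosomal proteins, which every cell makes in large amounts, the median SD was 0.15, and 1 of them lay above the all-gene median. For 16 transcription factors that mark the telencephalon, such as emx1, eomesa and tbr1b, it was 0.34, with 2 above the all-gene median. For 12 markers of the hindbrain and spinal cord other than Hox genes it was 1.02, with 9 above the all-gene median. For 24 genes of lens, egg, pancreas, liver and intestine, such as the insulin gene ins and the elastase ela2, it was 1.09, with 22 above the all-gene median. By this measure the Hox median lay near those of genes of other regions and tissues and above those of telencephalic and ribosomal genes.

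**Figure D3:**
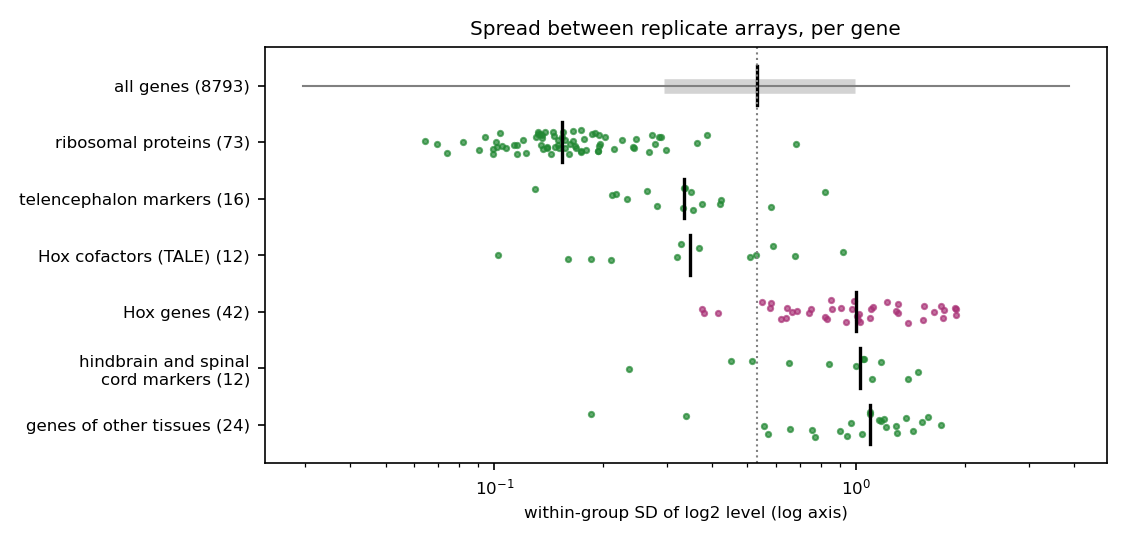
Within-group SD of log2 levels per gene on a log axis, by gene list, with the number of genes in brackets. Points are genes, black bars are medians, the grey band and line for all genes give the quartiles and the range, the dotted line marks the all-gene median of 0.53, and Hox genes centre at 1.00.

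With this spread the intervals of the differences were wide. The 95% interval of a Hox gene's difference had a median half-width of 1.71 on the log2 scale, or 3.28-fold, against 1.01, or 2.01-fold, over all genes. The narrowest, for hoxb6b, was 0.80. Differences of at least 1.5-fold were frequent among these widely spread genes. Of the Hox genes 12 were lower (28.6%) and 10 higher (23.8%) by that much, against 12.7% and 14.1% of all genes. Measured against its standard error, the median size of the difference was 0.75 for Hox genes and 0.65 for all genes.

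Several Hox genes were measured by more than 1 probe set, and these did not always go the same way. In the fit of all probe sets limma gave 5 of the 59 Hox probe sets lower at an unadjusted p under 0.05 (8.47%) and 0 higher, beside 2.06% and 2.17% of all 15502. They were those of hoxb5a, hoxa11a, hoxa13b and hoxc12b and 1 of the 2 for hoxd4a. Between probe sets of the same Hox gene the mean gap over the 6 arrays had a median of 1.25 on the log2 scale over 21 pairs, against 0.80 over 2608 pairs of all genes. The differences of 13 of these 21 pairs had the same sign (61.9%), against 52.3% of all pairs. Pairs of a gene share probe sets and are not independent.

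The 3 probe sets of hoxb8a were all lower, at -1.61 ± 0.71, -1.04 ± 0.95 and -2.18 ± 0.93. The middle one has an ID suffix, _s_at, with which the array maker marks probes shared by several transcripts. The deposited ratios were 1.00, 0.486 and 1.42 on control and 0.123, 0.446 and 0.438 on fadrozole arrays for the first. They were 1.00, 0.697 and 2.80, and 1.97, 0.349 and 0.319 for the middle one. They were 0.670, 1.00 and 1.71, and 0.805, 0.0826 and 0.181 for the last. Fadrozole replicate 1 was thus the lowest array on the first probe set and the second highest on the middle one. Both probe sets of hoxd4a were lower, at -1.86 ± 0.76 and -1.25 ± 0.82. Their ratios on fadrozole arrays were 0.274, 0.0898 and 0.316 for the first and 0.439, 0.179 and 0.748 for the other, with replicate 2 lowest on both, and control replicate 1 was low on both at 0.307 and 0.352. For hoxc8a, in contrast, the 3 values were -0.03 ± 1.12, 0.77 ± 0.76 and -1.31 ± 0.94, and for hoxb8b they were 0.30 ± 0.86 and -1.16 ± 0.68.

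Of the Hox probe sets, 43 carry the letter S and 16 the letter A in their ID, the array maker's marks for the sense and the antisense orientation of the sequence used for design. The values of hoxc13a, given above among the widest spreads, and of hoxd11a come from a letter A probe set alone. In 8 pairs a gene had both letters under the same cluster number. Their median gap was 1.30, near the 1.25 of the 13 other Hox pairs. Of these 8 pairs 4 had the same sign (50%), against 42.9% of 63 such pairs over all genes. For hoxa10b the pair followed each other, with levels on control replicates 1, 2 and 3 of 0.11, -1.13 and 2.88 for A and of 0.11, -1.82 and 2.57 for S. On both, control replicate 3 was high and control replicate 2 low. For hoxb7a the pair did not: fadrozole replicate 3 was at -3.37 for A and 1.67 for S.

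**Figure D4:**
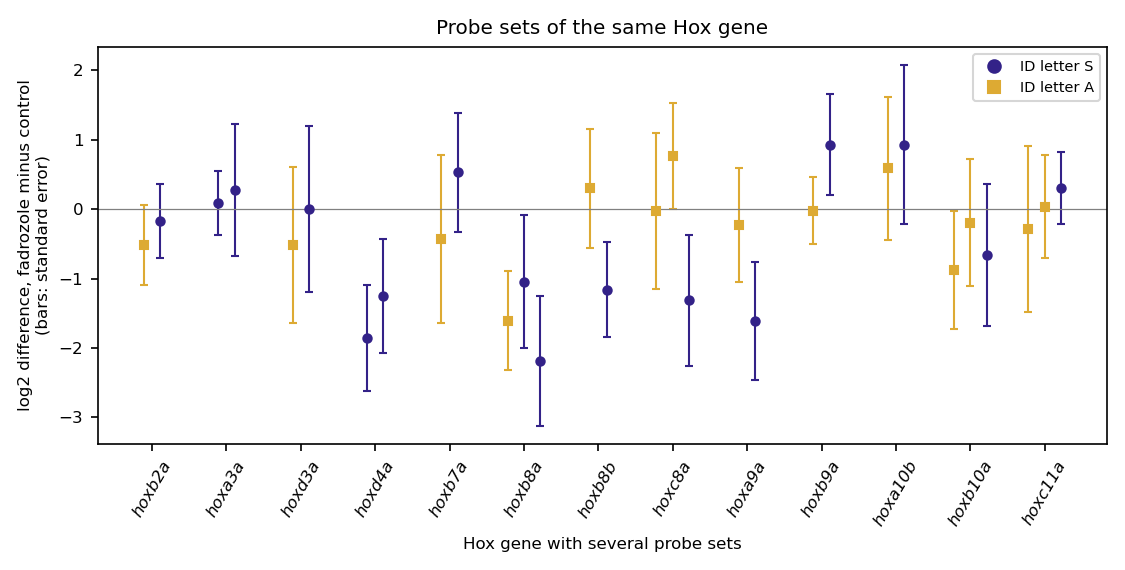
Log2 difference, fadrozole minus control, of each probe set of the 13 Hox genes with several, with the standard error as bars. Circles are probe sets with the letter S and squares those with the letter A in the ID, all 3 values of hoxb8a lie below 0, and the values of hoxc8a and hoxb8b lie on both sides.

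Hox genes were mostly lower on the smaller slide run, in a comparison added after the values were seen. In a limma fit with group and run as terms, 34 of the 42 Hox genes were lower on the smaller run than on the larger one, with a median difference between runs of -0.84, against -0.01 over all genes. Of these, 8 Hox genes (19.0%) were lower at an unadjusted p under 0.05 and 0 higher, beside 6.37% and 2.48% of all genes, and 0 of all genes passed the adjusted test. By at least 1.5-fold, 27 Hox genes were lower and 1 higher on the smaller run, beside 1992 and 953 of all 8793 genes. Without removal of array shifts these counts were 18 and 3 for Hox genes, beside 1353 and 2422. All 13 anterior genes were lower on the smaller run, 9 of the 12 middle ones and 12 of the 17 posterior ones. The median run differences of these classes lay near each other, at -0.82, -0.96 and -0.84.

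The genes with the smallest p between runs in limma were hoxb1a at -3.02 ± 0.61 (adjusted p = 0.387), hoxc9a at -2.75 ± 0.62, hoxb6a at -2.02 ± 0.48, hoxd3a at -2.54 ± 0.63 and hoxc6a at -1.19 ± 0.30. Taken by group, the direction was the same. The run difference of the fit is made from these same values, so this is a description and no separate test. Replicate 2 lay below the mean of replicates 1 and 3 for 32 Hox genes among controls (76.2%) and for 33 among fadrozole arrays (78.6%), against 48.1% and 50.8% of all genes. It did so in both groups for 25 Hox genes (59.5%, against 29.0% of all genes) and lay above in both for 2. Control replicate 2 was the lowest of the 6 arrays for 18 Hox genes (42.9%, against 17.8% of all genes) and fadrozole replicate 2 for 10 (23.8%, against 16.2%). These counts were 13 and 9 without removal of array shifts and 12 and 13 with plain median centring, where the order of both arrays turned. Other lists went either way, where 50.5% of all genes were lower on the smaller run. Of the 14 genes that set Hox expression in the embryo 11 were lower, with a median of -0.55, and of the 12 hindbrain and spinal cord markers 7 were, with a median of -0.68. Of the 24 genes of other tissues 15 were lower on the smaller run, with a median of -0.29. Of the 16 telencephalic markers 6 were lower, with a median of 0.20. Of the 73 ribosomal proteins 46 were lower, with a median of -0.06. The TALE cofactors had 5 of 12 lower (median 0.10) and the chromatin regulators named below 3 of 11 (0.25). The other homeobox genes taken as linked to Hox clusters had 4 of 6 lower (-0.07). Without removal of array shifts 12 genes of other tissues were lower and 12 higher, where 32.8% of all genes were lower.

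The direction of the Hox genes did not depend on the scaling of the arrays. Without removal of array shifts 31 Hox genes were lower on the smaller run, with a median of -0.53 where all genes had 0.30, and with quantile normalisation 32 were, with medians of -0.66 and 0.17. What the slide numbers stand for beyond the order of slides is not given in the labels. Both groups have arrays in both runs. Of the 5 Hox genes with the smallest p for fadrozole, hoxb8a and hoxa11a differed between runs by -1.15 ± 0.47 and -0.84 ± 0.37, hoxa13b by -0.86 ± 0.59, and hoxb5a and hoxc12b by 0.11 ± 0.36 and 0.17 ± 0.56.

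**Figure D5:**
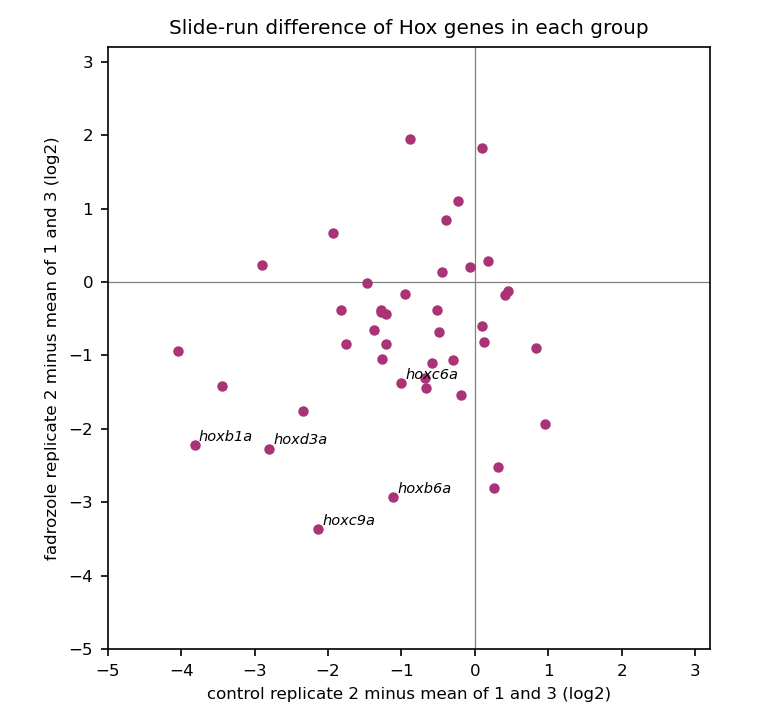
Level on replicate 2, the smaller slide run, minus the mean of replicates 1 and 3, the larger run, in log2 units for each Hox gene, with controls on the horizontal and fadrozole on the vertical axis. Points are the 42 genes, 25 of them lie in the lower left where replicate 2 is lower in both groups, and the 5 genes with the smallest p between runs are named.

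Genes that work with Hox genes were taken as lists. Of 12 measured TALE cofactors, 5 were higher and 7 lower, with a median of -0.06, and 0 had an unadjusted p under 0.05 in limma. The cofactor genes meis1b, pbx2 and meis2b were at -0.51 ± 0.30, 0.34 ± 0.25 and 0.82 ± 0.65. Their median SD of 0.35 lay near that of telencephalic markers, not of Hox genes. Of 14 genes that set Hox expression in the embryo, through retinoic acid, FGF, Cdx factors or hindbrain segmentation, 9 were lower and 5 higher. Their median was -0.42, and again 0 passed at that p. The retinoic acid degrading enzymes cyp26c1 and cyp26a1 were at -1.99 ± 1.08 and -0.51 ± 0.28, and for cyp26a1 all fadrozole arrays lay below the control arrays. The margin was small, with fadrozole replicate 3 at -0.101 and control replicate 2 at -0.095. Only cyp26a1 of the 14 had no overlap (7.14%, against 7.82% of all genes in either direction). A further retinoic acid degrading enzyme, cyp26b1, was on the other side at 0.72 ± 0.73. The ligand gene fgf8a was at 1.21 ± 0.73 and the segmentation gene egr2b at -0.70 ± 0.48.

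Of 11 chromatin regulators of the Polycomb and Trithorax groups and their demethylases, which keep Hox clusters silent or active, 6 were lower and 5 higher, with a median of -0.02. suz12a and ezh2, subunits of the complex that methylates histone H3, were at 1.31 ± 0.66 and 0.60 ± 0.34, and eed of the same complex was at -0.28 ± 0.24. The groups did not overlap for suz12a and eed, which went in opposite directions. These 2 are 18.2% of the 11, against 7.82% of all genes without overlap in either direction. cbx8a, of the Polycomb group, was at -0.75 ± 0.57. None of the 11 had an unadjusted p under 0.05 in limma. The 6 other homeobox genes taken as linked to Hox clusters had 4 higher and 2 lower. Of these, dlx1a and dlx2a are also among the telencephalic markers. In the list of 6, dlx4b was at -1.94 ± 0.52 (limma, unadjusted p = 0.0101, adjusted p = 0.945), with no overlap between the groups. This is 16.7% of the 6, against 3.89% of all genes without overlap in that direction. evx2 and evx1 were at 0.75 ± 0.74 and 0.74 ± 0.90.

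Of the 12 measured hindbrain and spinal cord markers other than Hox genes, 7 were lower and 5 higher, with a median of -0.21. The paired box gene pax8 was at -1.31 ± 0.37 and zic4 at -2.29 ± 0.77, both with no overlap between the groups (limma, unadjusted p = 0.0119 and 0.0248, adjusted p = 0.945 and 0.999). These 2 are 16.7% of the 12. Of all genes 1.98% were lower at an unadjusted p under 0.05 in limma, and 3.89% had no overlap in that direction. fgf8a and egr2b, given above, are also in this list. The midbrain-hindbrain gene en2b was at -1.35 ± 0.81. Of the 16 telencephalic markers 6 were higher and 10 lower, with a median of -0.04, and 0 had an unadjusted p under 0.05 in limma. Among them nkx2.1 was at 0.64 ± 0.28 and dlx2b at 0.55 ± 0.31. Only nkx2.1 had no overlap between the groups, which is 6.25% of the 16, against 7.82% of all genes in either direction. Since brightness is lost, the amount of hindbrain tissue in the pools could not be measured from these genes. Its part in the Hox values was not tested.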

How the data were processed

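RNA was labelled with biotin and hybridised to one-colour arrays, per the labels' protocols. How scanner signals were scaled and summarised is not given in the sources used here. The deposited values are linear ratios to the median of the 3 control arrays, which was exactly 1 for every probe set. Scale and direction follow from this, and the original brightness stays unknown. The deposited median ratio per array was 1.00 for each control array and 0.994, 1.11 and 0.977 for fadrozole replicates 1, 2 and 3.

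From the ratios, log2 values were taken without a pseudocount. Array shifts, the median deviation of 15502 probe sets from their means over arrays, centred to sum to 0, were removed (from -0.14 to 0.25). The 115 control probe sets were left out. GEO's platform annotation gave 1 symbol to 10795 probe sets, several to 135 and none to 4572; 10711 were matched to RefSeq by gene number, which updated 1 symbol. Two-sided limma fits (version 3.58.1, under R 4.3.3) were made over 8793 genes without a variance trend, with p-values adjusted by Benjamini-Hochberg over all genes. They were checked on simulated data.

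Hox members, lists and tests were chosen with earlier results of these data known. Values of every array are given for Hox genes with unadjusted p under 0.05, without overlap or with the 3 widest or narrowest spreads, and for the gene farthest from 0 in each class; of each list the 2 to 4 genes with the smallest p are named. Of the genes with several probe sets, array values per probe set are printed in part. hoxc11b, cyp26b1, fga, fgb and the examples of probe sets were picked after their values were seen. Alternatives were other array scalings, an offset of 0.1, other probe-set summaries, a variance trend, array weights, slide run or replicate number as a block, the larger run alone, and each array left out.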

Additional observations from a re-analysis of the deposited data

How the results depend on the processing

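Across 17 alternatives no Hox gene passed the adjusted limma test. The number at an unadjusted p under 0.05 stayed within 1.5 times the 5 given, except 2 with a variance trend, and was 4 to 6 with an array left out. Of the 42 genes, 21 kept the sign of their difference in every alternative and 21 did not. The median difference of Hox genes, -0.22, ranged from -0.42 to 0.11 with an array left out. The count of genes without overlap was 3 in the main fit. It was 4 without removal of array shifts, with plain median centring, with quantile normalisation and with probe sets of plain _at suffix only. In these settings the Hox share was 9.52% to 9.76%, beside 3.32% to 7.86% of all genes. The count was 11 in the larger slide run alone and 7 to 10 with an array left out. Fewer arrays give fewer chances to overlap. Over all genes the share was 7.82% in the main fit, 34.1% in the larger run and 15.5% to 22.2% with an array left out. For Hox genes it was 7.14%, 26.2% and 16.7% to 23.8% in the same order. The main fit did not take the replicate numbers as pairs. Over all genes the deviations of same-numbered arrays correlated with r of 0.07, 0.19 and 0.09, and each array correlated best with its own number. These low values do not settle whether the arrays are pairs. With the replicate block 5 Hox genes had an unadjusted p under 0.05, 4 lower and 1 higher. There hoxc11b joined them and hoxc12b dropped out. The counts were also 4 lower and 1 higher with slide run as a block, in the larger run alone and without removal of array shifts. In these 4 settings this is 11.9% of the Hox genes, beside 4.07% to 5.91% of all genes. Counts of all genes at that p ran from 178 with quantile normalisation to 560 without control replicate 2, against 360. The run comparison, added after the values were seen, gave 31 to 35 genes lower in all its settings. A filter on dim probe sets could not be run because brightness is lost.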

Other observations

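Genes of other tissues, which like Hox genes are not expected in the telencephalon, were taken as a list of 24. Of these, 11 differed by at least 1.5-fold (45.8%, against 26.9% of all genes), and in 4 the groups did not overlap (16.7%, against 7.82%). By sign, 11 were higher and 13 lower, with a median of -0.04. The intestinal fatty acid binding protein fabp2 was at 2.47 ± 0.43 and the liver fibrinogen gene fgg at 2.18 ± 0.55 (limma, unadjusted p = 0.00129 and 0.00786, adjusted p = 0.665 and 0.945). In both, the groups did not overlap. The liver gene fabp10a was at 0.74 ± 0.31 and the pancreatic lipase gene cel.1 at -1.02 ± 0.43, again without overlap. The other fibrinogen chains fga and fgb, whose products join that of fgg in 1 protein, were at 0.09 ± 0.55 and -0.05 ± 0.81.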
